A study of Rattus norvegicus with 12 samples.

Results

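The genes that encode potassium channels and their accessory subunits were followed in a rat vein graft model. Members were the genes whose rat symbol starts with Kcn, found by matching the RefSeq accession of each array probe to a gene table, with the large-conductance channel genes Kcnma1 and Kcnmb1 left out. Of 95 such symbols in the table, 81 had a probe on the array, and 67 of these were tested. Their probe was well above background on 3 or more of the 12 arrays, a filter that 12353 named genes passed in all. Vein from male rats was measured with 3 single-colour Agilent arrays for each of 4 groups: day 0, from rats that had no operation, and days 7, 14 and 28 after an external jugular vein had been set into the carotid artery as a bypass. Strain, age and genotype are not in the labels. The design text calls the 3 experiments of each graft day independent and says nothing of this kind for day 0, and neither it nor the labels says whether veins were pooled. The p-values thus reflect only the scatter of these arrays, part of which may be technical. Values are log2 intensities relative to the 75th percentile of their own array, and a negative value therefore lies below that percentile. Differences are given on that log2 scale ± SE from a fit over all 12 arrays, with p-values adjusted over 21063 probes and an adjusted p under 0.05 taken as a call. Since probes differ in brightness, levels are compared between days for 1 gene and never between genes.

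Potassium channels let potassium ions leave the cell and so hold the membrane potential of smooth muscle near rest, which limits calcium entry and contraction. Voltage-gated channels open on depolarisation, tandem-pore channels leak at rest, inward rectifiers pass current best near the resting potential, and calcium-activated channels answer to intracellular calcium. In macrophages and lymphocytes other members of the same families set the driving force for calcium entry and support volume control and activation.

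Of the 42136 gene spots, 71.9% to 82.6% were well above background on each of the 12 arrays and 0 were saturated, with 75th percentiles of intensity from 494 to 991. Array quality weights estimated from the fit ran from 0.0757 on day 0 replicate 3 to 26.6 on day 28 replicate 1, and the other two day 0 arrays were at 0.18 and 0.409. Day 0 replicate 3 and day 7 replicate 3 carried 460 and 393 non-uniform spots, where the other arrays carried 2 to 11. Arrays fell into 4 scans by the files' scan identifiers: 2 arrays of day 14 and 2 of day 28 in scan 1, 2 of day 0 and 1 of day 28 in scan 2, 3 of day 7 and 1 of day 14 in scan 3, and day 0 replicate 3 alone in scan 4. Day 0 thus shared no scan with day 7 or day 14, nor did day 7 share a scan with day 28. The summed intensity of 8 tested smooth muscle markers lay at 10.04 to 10.67 on the log2 scale on day 0 arrays and at 7.06 to 8.26 on graft arrays. Of the 8, 7 fell at each graft day, while the markers Myh11 and Acta2 were not among those tested. Fat cell markers fell as well, 6, 7 and 6 of 7 tested at days 7, 14 and 28, from a summed level of 6.01 to 6.31 on day 0 arrays to 3.38 to 4.40 on graft arrays. Of 5 tested cardiac muscle markers 3 fell and 1 rose at each graft day, with sums of 2.81 to 6.46 on day 0 arrays and 2.33 to 4.08 on graft arrays. The 6.46 was day 0 replicate 3 alone. The other day 0 arrays, at 2.81 and 3.38, lay within the graft range. Summed macrophage markers lay at 3.9 to 6.2 on day 0 arrays and 7.9 to 9.0 on graft arrays, with 9, 10 and 8 of 10 higher at days 7, 14 and 28. In bulk RNA of this kind, fewer cells of a type and less RNA per cell cannot be told apart, and this holds for every result below.

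At day 7, 16 of the 67 channel genes rose and 14 fell, which was 23.9% and 20.9% of them, against 17.7% and 15.4% of all probes tested. At day 14, 14 rose and 18 fell (20.9% and 26.9%, against 20.1% and 17.4% of probes), and at day 28, 13 rose and 13 fell (19.4% of them each way, against 17.4% and 16.5%). The shares of rises at days 14 and 28 were thus close to those of all probes, and the median difference of the 67 genes, -0.23, -0.10 and -0.08 at days 7, 14 and 28, stood beside -0.03, 0.02 and 0.01 for all probes. All arrays of day 7, day 14 and day 28 lay above all day 0 arrays for 16, 17 and 15 of the 67 genes. Among all probes tested this held for 19.8%, 25.9% and 23.9%. They lay below all day 0 arrays for 16, 24 and 22 genes and for 20.1%, 25.2% and 24.4% of probes. With the scan as a fixed block, day 0 replicate 3, alone in its scan, did not inform the differences between days. Day 0 was then tied to days 7 and 14 only through other graft days, so that fit was less precise. Of all 21063 probes 36, 631 and 736 were called higher there and 19, 403 and 627 lower at days 7, 14 and 28. Every called channel gene kept its direction. Of their calls, 1 of 30 at day 7 was kept, 8 of 32 at day 14 and 12 of 26 at day 28. Those kept were Kcnk12 at day 7, among others Kcna3, Kcnh2, Kcnh6, Kcnj9, Kcnk12, Kcnk3 and Kcnn4 at day 14, and among others Kcna1, Kcna3, Kcna5, Kcnd3, Kcnh3, Kcnj11, Kcnj15, Kcnk12, Kcnk3, Kcnn3 and Kcnn4 at day 28. With correction of background by the normexp method 6 rose and 7 fell at day 7. At day 14, 7 rose and 8 fell, and at day 28, 5 rose and 9 fell. Of all 21063 probes 1879, 1969 and 1474 then rose and 1221, 1560 and 1120 fell at days 7, 14 and 28. This setting moved the median of all probes by 0.47 at day 7 and by -0.17 at day 28. Kcna3, Kcna5, Kcnh2, Kcnh3, Kcnip2, Kcnk12, Kcnk13, Kcnk3, Kcnmb2 and Kcnn4 were among those that kept their call there at every graft day. Without both arrays with many non-uniform spots 3962, 4578 and 4082 of all probes were called higher at days 7, 14 and 28. Lower were 4225, 5033 and 5230 of them. As reported these were 3728, 4243 and 3668 higher and 3247, 3658 and 3468 lower. In that setting 35, 41 and 32 channel genes were called, with 25 of the 30, 31 of the 32 and 24 of the 26 calls kept. The calls lost were those of Kcna4, Kcng1, Kcng2, Kcnj12 and Kcnk6 at day 7, Kcnj13 at day 14 and Kcna4 and Kcnh6 at day 28. Leaving out day 7 replicate 3 raised the number that fell at day 28 to 20, and that of all probes from 3468 to 4037. By family, 8 of 30 voltage-gated pore genes rose and 7 fell at day 7, 5 and 10 did so at day 14, and 4 and 9 at day 28. Of 10 tandem-pore genes, 4, 4 and 3 rose at the 3 graft days and 1 fell at each. Of 9 inward rectifiers, 2, 2 and 4 rose and 1, 3 and 0 fell, and of 8 genes for calcium- or sodium-activated channels and their subunits, 1, 2 and 2 rose and 1 fell at each day. Of 10 auxiliary subunits of voltage-gated channels, 1, 1 and 0 rose and 4, 3 and 2 fell.

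**Figure D1:**
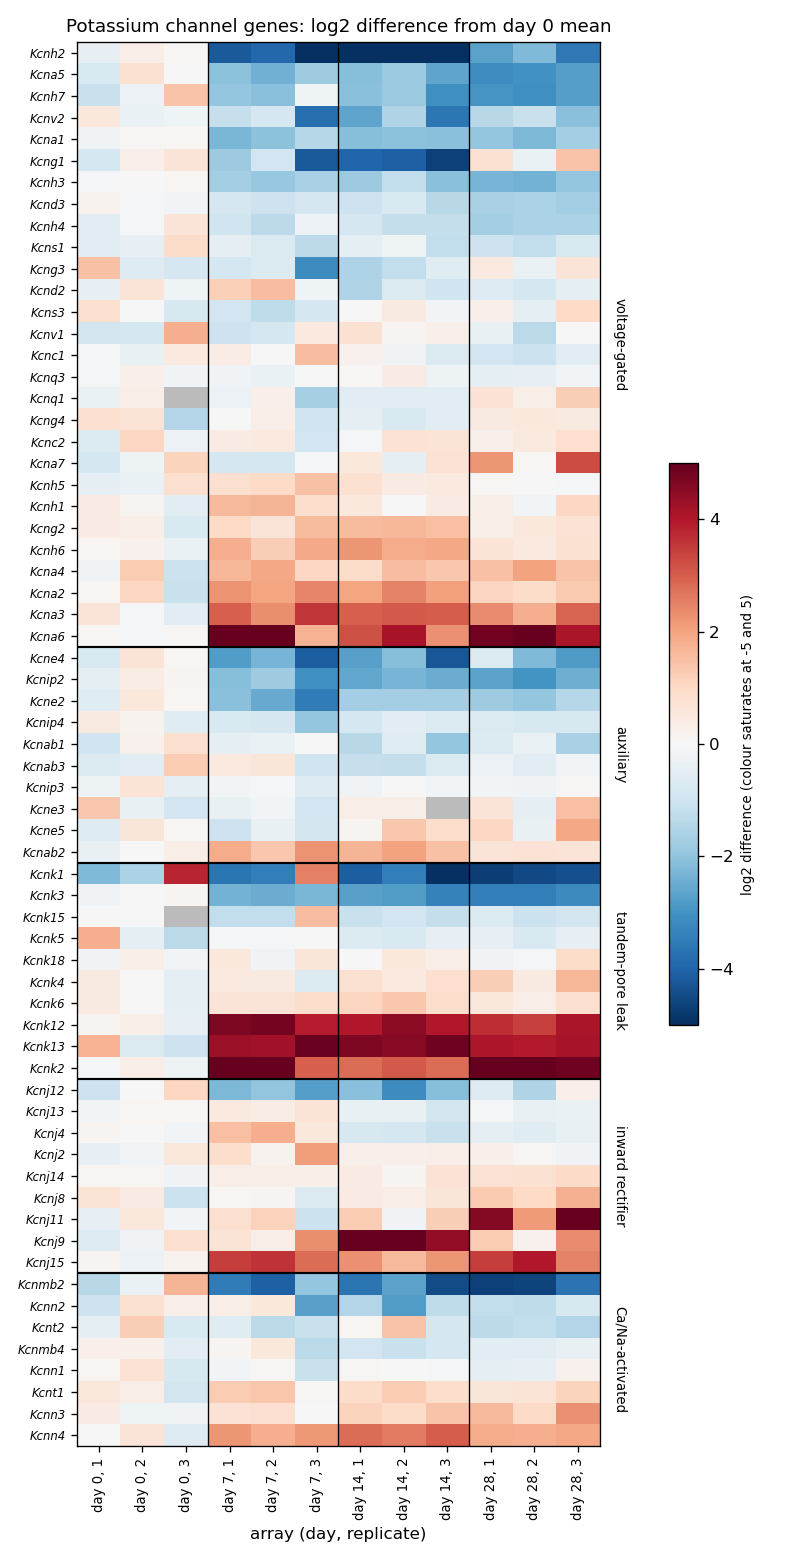
Log2 difference of each of 65 channel genes (rows, grouped by family) from its day 0 mean on each of the 12 arrays (columns, by day and replicate). Red is higher and blue lower than the day 0 mean, the colour saturates at -5 and 5, and grey cells have no value after outlier spots were dropped. Kcnh2 and Kcnh3 are blue on all 9 graft arrays, Kcnk12, Kcnk13 and Kcnk2 are red on all 9, and Kcnj9 is darkest at day 14.

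Among tandem-pore leak channels, Kcnk3 fell and Kcnk12, Kcnk13 and Kcnk2 rose at every graft day. Kcnk3 encodes an acid-sensitive background channel that helps set the resting potential of vascular smooth muscle. For Kcnk3 the day 0 arrays were at 1.68, 1.89 and 2.00. Graft arrays of Kcnk3 were at -0.50, -0.63 and -0.44 at day 7, at -0.87, -0.92 and -1.51 at day 14 and at -1.55, -1.61 and -1.33 at day 28. It fell by 2.38 ± 0.20 at day 7 (adjusted p = 2.79e-05), by 2.96 ± 0.20 at day 14 (adjusted p = 6.63e-06) and by 3.36 ± 0.20 at day 28 (adjusted p = 6.68e-06). All 9 graft arrays lay below all 3 day 0 arrays. Between graft days it was lower at day 28 than at day 7 by 0.98 ± 0.20 (adjusted p = 0.0422), a call that was lost without any 1 of 9 of the 12 arrays (adjusted p up to 0.188). With the scan as a block its falls at days 14 and 28 were still called (-2.75 ± 0.38, adjusted p = 0.0166, and -3.12 ± 0.29, adjusted p = 0.00446), while at day 7 the value was -2.40 ± 0.47, adjusted p = 0.127.

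Kcnk12 and Kcnk13 encode a related pair of halothane-inhibited channels, of which the Kcnk13 product is known as a leak channel of microglia. For Kcnk12 the day 0 arrays were at -4.68, -4.53 and -5.25. Graft arrays of Kcnk12 were at -0.15, -0.05 and -0.87 at day 7, at -0.81, -0.35 and -0.83 at day 14 and at -1.14, -1.42 and -0.75 at day 28. It rose by 4.46 ± 0.29 at day 7 (adjusted p = 8.09e-06), by 4.16 ± 0.29 at day 14 (adjusted p = 7.58e-06) and by 3.71 ± 0.29 at day 28 (adjusted p = 2.64e-05). Kcnk12 was the member whose day 7 call was kept with the scan as a block (4.99 ± 0.64, adjusted p = 0.0417), and its calls at all 3 graft days held under each of the 26 alternatives run. Kcnk13 lay at -3.03, -5.48 and -5.82 on the day 0 arrays and at -0.49, -0.58 and 0.16 at day 7. Later Kcnk13 arrays were at -0.10, -0.24 and 0.10 at day 14 and at -0.72, -0.82 and -0.64 at day 28. The gene rose by 4.47 ± 0.58 at day 7 (adjusted p = 0.000356), by 4.70 ± 0.58 at day 14 (adjusted p = 0.000201) and by 4.05 ± 0.58 at day 28 (adjusted p = 0.000805). No graft array of either gene overlapped a day 0 array. For Kcnk13 the day 0 arrays were spread, with replicate 1 at -3.03 against -5.48 and -5.82, and 2 of them were well above background. Summed macrophage markers rose with these genes, and their part in the result was not tested.

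Kcnk2 encodes a leak channel opened by membrane stretch, warmth and lipids. Kcnk2 was measured at -4.25, -3.83 and -4.44 on the day 0 arrays and at 1.53, 1.95 and -1.19 at day 7. Later Kcnk2 arrays were at -1.37, -1.10 and -1.37 at day 14 and at 1.73, 2.25 and 0.71 at day 28. Its level rose by 4.94 ± 0.70 at day 7 (adjusted p = 0.00057), by 2.89 ± 0.70 at day 14 (adjusted p = 0.00863) and by 5.74 ± 0.70 at day 28 (adjusted p = 0.000324). A dimmer second probe for Kcnk2 gave 3.81, 2.52 and 3.96 at days 7, 14 and 28. Day 7 replicate 3 lay at -1.19, with the day 14 arrays, and away from 1.53 and 1.95 on the other day 7 arrays. Day 28 exceeded day 14 by 2.84 ± 0.70 (adjusted p = 0.0486), a call lost without any 1 of 8 of the 12 arrays (adjusted p up to 0.176). Without both arrays with many non-uniform spots the day 7 rise was 5.78 ± 0.43, and day 14 was below day 7 by 3.02 ± 0.40 (adjusted p = 0.00218). Of 7 tested neuron markers 6 rose at day 7, 2 rose and 2 fell at day 14, and 3 rose at day 28. Their summed level ran from -0.7 to 1.3 on day 0 arrays and from 2.4 to 3.4 on graft arrays, 3 of the 7 were not above background on any day 0 or any day 14 array, and their part in the values of Kcnk2 was not tested.

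Of the other tandem-pore genes, Kcnk6 encodes a channel that mediates potassium efflux from macrophages. Kcnk6 stood at 0.24, -0.17 and -0.69 on the day 0 arrays and at 0.45, 0.42 and 0.69 at day 7. Later Kcnk6 arrays were at 0.86, 1.14 and 0.68 at day 14 and at 0.36, 0.11 and 0.60 at day 28. It rose by 0.73 ± 0.25 at day 7 (adjusted p = 0.0464) and by 1.10 ± 0.25 at day 14 (adjusted p = 0.00627), and differed by 0.57 ± 0.25 at day 28 (adjusted p = 0.105). Its day 7 call was lost without any 1 of 11 of the 12 arrays (adjusted p up to 0.113). Kcnk5, an alkaline-activated leak channel, differed from day 0 by -0.05 ± 0.61 at day 7 (adjusted p = 0.963), -0.62 ± 0.61 at day 14 (adjusted p = 0.451) and -0.53 ± 0.61 at day 28 (adjusted p = 0.529). Its day 0 arrays were spread from -4.68 to -1.51, across the graft range of -4.11 to -3.34. Kcnk4, Kcnk15 and Kcnk18 were not called at any graft day, with differences from -1.08 to 1.11, and Kcnk15 was the member nearest the filter, above background on 3 arrays, while Kcnj5 and Kcnj1, each above it on 2, were the nearest left out. Without both arrays with many non-uniform spots Kcnk15 was called at every graft day, though it was not well above background on any day 14 array. Kcnk1, a weakly conducting leak channel, is described because its spread was noticed after its values were seen. For Kcnk1 the day 0 arrays were at -0.02, 0.64 and 5.99. Graft arrays of Kcnk1 were at -1.45, -1.24 and 4.73 at day 7, at -1.91, -1.26 and -2.94 at day 14 and at -2.50, -2.30 and -2.21 at day 28. The 2 high arrays were those with many non-uniform spots. With them its difference was -1.52 ± 1.76 at day 7 (adjusted p = 0.547), -4.24 ± 1.76 at day 14 (adjusted p = 0.0833) and -4.54 ± 1.76 at day 28 (adjusted p = 0.0709). Without them the difference was -1.66 ± 0.47 at day 7 (adjusted p = 0.0241), -2.35 ± 0.43 at day 14 (adjusted p = 0.00272) and -2.65 ± 0.43 at day 28 (adjusted p = 0.00198).

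A delayed rectifier known from vascular smooth muscle, Kcna5, fell in the grafts. Kcna5 encodes a pore subunit of the sustained outward current that opposes depolarisation of the muscle cell. For Kcna5 the day 0 arrays were at 1.82, 3.33 and 2.60. Graft arrays of Kcna5 were at 0.53, 0.18 and 0.80 at day 7, at 0.45, 0.72 and -0.07 at day 14 and at -0.51, -0.44 and -0.17 at day 28. Its level fell by 2.08 ± 0.36 at day 7 (adjusted p = 0.00172), by 2.22 ± 0.36 at day 14 (adjusted p = 0.000963) and by 2.96 ± 0.36 at day 28 (adjusted p = 0.000314). Every graft array of it was below every day 0 array. With the scan as a block the fall of Kcna5 was called at day 28 (-2.74 ± 0.62, adjusted p = 0.0467). Smooth muscle and fat cell markers fell beside Kcna5 and Kcnk3, as given above, and beside the other channel genes that fell, and their part in these results was not tested.

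**Figure D2:**
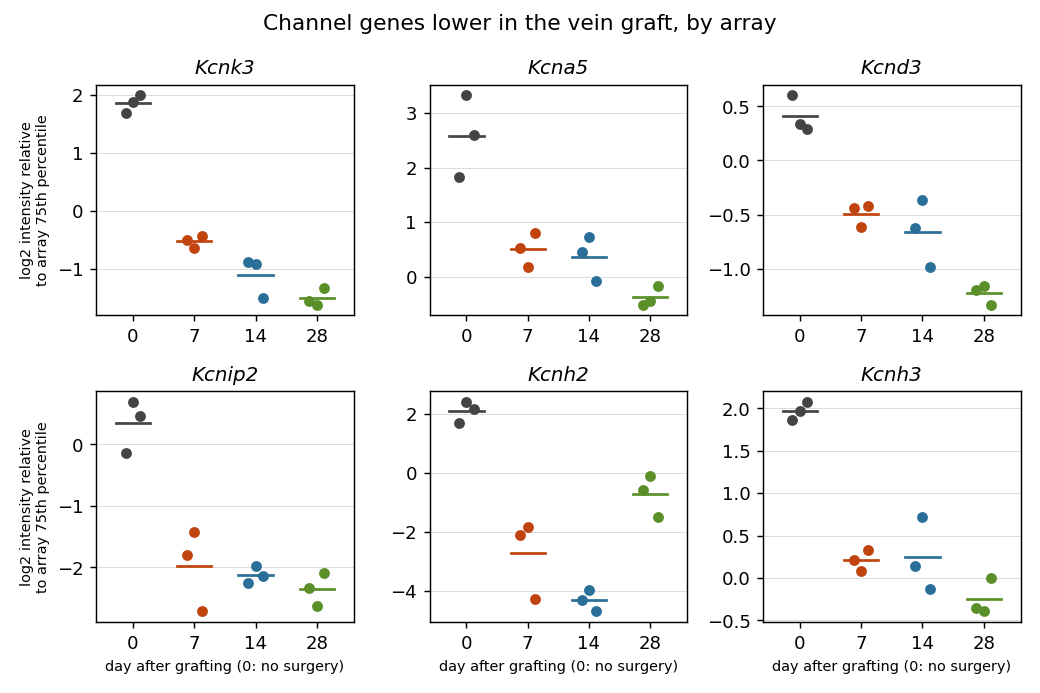
Log2 intensity relative to the array's 75th percentile on each array (points) and the mean of each day (lines) for 6 channel genes called lower at every graft day, by day after grafting, where day 0 is vein without surgery. Every graft array of each gene lies below all 3 of its day 0 arrays. Of all probes tested, 20.1%, 25.2% and 24.4% lay wholly below day 0 at day 7, day 14 and day 28, each day taken alone. The vertical scale differs between panels.

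The transient outward current gene Kcnd3 and its calcium-binding partner Kcnip2, which raises the surface number of such channels, also fell. Kcnd3 stood at 0.60, 0.33 and 0.29 on the day 0 arrays and at -0.44, -0.62 and -0.42 at day 7. Later Kcnd3 arrays were at -0.62, -0.36 and -0.99 at day 14 and at -1.19, -1.16 and -1.33 at day 28. This gene fell by 0.90 ± 0.19 at day 7 (adjusted p = 0.00484), by 1.07 ± 0.19 at day 14 (adjusted p = 0.00162) and by 1.64 ± 0.19 at day 28 (adjusted p = 0.000247). Kcnip2 stood at -0.14, 0.70 and 0.47 on the day 0 arrays and at -1.80, -1.42 and -2.72 at day 7. Later Kcnip2 arrays were at -2.26, -1.98 and -2.14 at day 14 and at -2.33, -2.63 and -2.09 at day 28. Kcnip2 fell by 2.32 ± 0.33 at day 7 (adjusted p = 0.000604), by 2.47 ± 0.33 at day 14 (adjusted p = 0.000318) and by 2.70 ± 0.33 at day 28 (adjusted p = 0.00034). The other two Kcnip2 probes fell by 2.34 and 2.33 at day 7, by 2.54 and 2.53 at day 14 and by 2.72 and 2.83 at day 28. Kcnd2, another pore gene of the transient current, differed from day 0 by 0.85 ± 0.45 at day 7 (adjusted p = 0.17), -1.07 ± 0.45 at day 14 (adjusted p = 0.0828) and -0.65 ± 0.45 at day 28 (adjusted p = 0.278), with no call. Without both arrays with many non-uniform spots Kcnd2 differed by 1.26 ± 0.38 at day 7 (adjusted p = 0.0291) and by -1.19 ± 0.34 at day 14 (adjusted p = 0.022). For Kcnd2 the day 0 arrays were at -3.66, -2.59 and -3.48. Graft arrays of Kcnd2 were at -2.04, -1.69 and -3.45 at day 7, at -4.76, -3.96 and -4.23 at day 14 and at -3.89, -4.13 and -3.67 at day 28. It was lower at day 14 than at day 7 by 1.93 ± 0.45 (adjusted p = 0.0452), a call lost without any 1 of 8 of the 12 arrays (adjusted p up to 0.186).

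Of the ether-a-go-go family, Kcnh2, which carries the rapid delayed rectifier of heart muscle, had the largest fall among members at days 7 and 14. For Kcnh2 the day 0 arrays were at 1.69, 2.41 and 2.16. Graft arrays of Kcnh2 were at -2.12, -1.83 and -4.28 at day 7, at -4.33, -3.98 and -4.70 at day 14 and at -0.59, -0.11 and -1.51 at day 28. It fell by 4.83 ± 0.59 at day 7 (adjusted p = 0.000237), by 6.42 ± 0.59 at day 14 (adjusted p = 3.61e-05) and by 2.82 ± 0.59 at day 28 (adjusted p = 0.00515). It then stood higher at day 28 than at day 14 by 3.60 ± 0.59 (adjusted p = 0.0112), which was not called without day 14 replicate 1, day 14 replicate 3 or day 28 replicate 1 (adjusted p up to 0.0601). At day 28 its 3 arrays still lay below all day 0 arrays. The part of the cardiac muscle markers given above in the values of Kcnh2 was not tested. Kcnh3 stood at 1.86, 1.96 and 2.08 on the day 0 arrays and at 0.21, 0.08 and 0.33 at day 7. Later Kcnh3 arrays were at 0.14, 0.72 and -0.13 at day 14 and at -0.35, -0.39 and -0.01 at day 28. Kcnh3, a mainly neuronal member, fell by 1.76 ± 0.22 at day 7 (adjusted p = 0.00031), by 1.72 ± 0.22 at day 14 (adjusted p = 0.000264) and by 2.22 ± 0.22 at day 28 (adjusted p = 0.000125). Kcnh7 stood at -3.51, -2.67 and -0.97 on the day 0 arrays and at -4.32, -4.48 and -2.60 at day 7. Later Kcnh7 arrays were at -4.48, -4.22 and -5.47 at day 14 and at -5.32, -5.44 and -5.13 at day 28. Kcnh7 fell by 2.34 ± 0.66 at day 14 (adjusted p = 0.0181) and by 2.91 ± 0.66 at day 28 (adjusted p = 0.00756), and the day 7 difference was -1.42 ± 0.66 (adjusted p = 0.125). Its day 14 call was lost without day 0 replicate 3 or day 14 replicate 3 (adjusted p up to 0.0736), and day 0 replicate 3 was its highest array. Without both arrays with many non-uniform spots the Kcnh7 difference at day 7 was -1.31 ± 0.41 (adjusted p = 0.0343). Kcnh6 moved the other way. For Kcnh6 the day 0 arrays were at -4.61, -4.49 and -5.03. Graft arrays of Kcnh6 were at -2.88, -3.48 and -2.83 at day 7, at -2.51, -2.84 and -2.77 at day 14 and at -4.02, -4.22 and -3.96 at day 28. It rose by 1.65 ± 0.22 at day 7 (adjusted p = 0.000457), by 2.00 ± 0.22 at day 14 (adjusted p = 0.00011) and by 0.64 ± 0.22 at day 28 (adjusted p = 0.0495). The day 28 call was lost without any 1 of 9 of the 12 arrays (adjusted p up to 0.133). Day 28 lay below day 14 by 1.36 ± 0.22 (adjusted p = 0.0116), a call lost without day 14 replicate 1 or day 28 replicate 1 (adjusted p up to 0.0708).

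The Kv1 subfamily, whose pore subunits assemble into mixed tetramers, was split in direction. Kcna3, the channel of activated T cells and macrophages, rose at every graft day. For Kcna3 the day 0 arrays were at -2.68, -3.40 and -3.85. Graft arrays of Kcna3 were at -0.32, -0.98 and 0.27 at day 7, at -0.33, -0.25 and -0.30 at day 14 and at -0.95, -1.50 and -0.42 at day 28. It rose by 2.97 ± 0.39 at day 7 (adjusted p = 0.000356), by 3.02 ± 0.39 at day 14 (adjusted p = 0.000244) and by 2.36 ± 0.39 at day 28 (adjusted p = 0.00157). Its calls at days 14 and 28 were kept with the scan as a block (3.58 ± 0.69, adjusted p = 0.0352, and 2.63 ± 0.54, adjusted p = 0.0373), and at day 7 the value was 3.56 ± 0.86, adjusted p = 0.185. Of 8 tested T cell markers 5, 6 and 2 rose at days 7, 14 and 28 and none fell, and 9, 10 and 8 of 10 macrophage markers rose. The summed T cell level was 1.7 to 5.9 on day 0 arrays and 3.2 to 5.6 on those of day 7. It was 3.86 to 3.96 on those of day 14 and 2.7 to 3.02 on those of day 28. Both high sums came from the arrays with many non-uniform spots, day 0 replicate 3 at 5.86 and day 7 replicate 3 at 5.58. The other day 0 arrays were at 3.30 and 1.68 and the other day 7 arrays at 3.43 and 3.22. The part of these markers in the rise of Kcna3 was not tested. Kcna2 stood at -5.51, -4.57 and -6.72 on the day 0 arrays and at -3.36, -3.64 and -3.16 at day 7. Later Kcna2 arrays were at -3.62, -3.11 and -3.55 at day 14 and at -4.54, -4.68 and -4.29 at day 28. Kcna2, a pore subunit of axons and of smooth muscle, rose by 2.22 ± 0.44 at day 7 (adjusted p = 0.00351) and by 2.17 ± 0.44 at day 14 (adjusted p = 0.00326), and the day 28 difference was 1.10 ± 0.44 (adjusted p = 0.0766). On day 0 arrays Kcna2 was well above background on 1 of 3. Kcna6 stood at -7.83, -8.01 and -7.85 on the day 0 arrays and at -2.57, -2.12 and -6.17 at day 7. Later Kcna6 arrays were at -4.71, -3.76 and -5.60 at day 14 and at -3.08, -2.70 and -3.80 at day 28. Kcna6, a mainly neuronal subunit, was not well above background on any day 0 array, so its rise was a bound of at least 7.39-fold at day 7 (adjusted p = 0.00492), at least 3.52-fold at day 14 (adjusted p = 0.0177) and at least 9.95-fold at day 28 (adjusted p = 0.00326). For such a bound each dim array enters at the probe's own value or, where that is lower, at the faintest value that any probe well above background had on it. Kcna6 passed the background filter only through the graft arrays, of which 2, 3 and 3 were above background at days 7, 14 and 28. The filter thus favoured a rise, and the calls of Kcna6 are no separate support for one. Its day 14 call was lost without day 14 replicate 2 (adjusted p = 0.0649).

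Kcna3 and Kcna2 are next to each other among protein-coding genes on chromosome 2 of the RefSeq annotation of GRCr8, and Kcna5, Kcna1 and Kcna6 follow one another on chromosome 4. In the first group both genes were called higher at days 7 and 14, and in the second Kcna5 and Kcna1 were called lower at every graft day. Kcna6 was called higher at every graft day. It passed the filter only through graft arrays, which favoured a rise, so its direction is not set against theirs. The RefSeq promoter windows of GRCr8 (250 bases before to 50 after the start) are shown for the genes of these groups that have an entry, because they are neighbours whose values are given here; capitals mark matches to GGGCGG or its reverse complement. The Kcna3 window is chr2:197320074-197320373, plus strand, that of Kcna2 chr2:197393280-197393579, plus strand, that of Kcna5 chr4:161043760-161044059, minus strand and that of Kcna6 chr4:161262303-161262602, minus strand.
Kcna3 promoter: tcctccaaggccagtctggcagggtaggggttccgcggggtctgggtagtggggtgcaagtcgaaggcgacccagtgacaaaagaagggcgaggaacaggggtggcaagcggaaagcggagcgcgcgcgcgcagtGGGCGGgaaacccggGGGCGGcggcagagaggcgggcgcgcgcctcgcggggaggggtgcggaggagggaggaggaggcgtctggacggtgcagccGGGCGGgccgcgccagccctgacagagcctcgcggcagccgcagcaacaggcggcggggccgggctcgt
Kcna2 promoter: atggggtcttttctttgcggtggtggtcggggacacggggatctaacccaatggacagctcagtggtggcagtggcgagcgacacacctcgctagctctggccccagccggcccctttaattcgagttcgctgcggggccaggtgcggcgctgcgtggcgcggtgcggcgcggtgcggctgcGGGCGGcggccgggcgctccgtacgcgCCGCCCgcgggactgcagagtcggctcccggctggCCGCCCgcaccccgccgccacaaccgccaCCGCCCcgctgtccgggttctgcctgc
Kcna5 promoter: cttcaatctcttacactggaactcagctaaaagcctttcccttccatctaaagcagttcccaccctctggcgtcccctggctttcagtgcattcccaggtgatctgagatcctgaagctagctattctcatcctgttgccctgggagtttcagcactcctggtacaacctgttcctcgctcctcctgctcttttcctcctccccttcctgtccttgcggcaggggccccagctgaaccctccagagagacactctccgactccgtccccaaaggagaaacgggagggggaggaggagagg
Kcna6 promoter: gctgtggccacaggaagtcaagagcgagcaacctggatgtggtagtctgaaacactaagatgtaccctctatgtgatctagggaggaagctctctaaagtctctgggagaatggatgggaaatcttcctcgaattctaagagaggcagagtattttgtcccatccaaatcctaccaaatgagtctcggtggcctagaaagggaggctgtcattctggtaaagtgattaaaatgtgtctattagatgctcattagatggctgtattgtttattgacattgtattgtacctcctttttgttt

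The Kcna3 and Kcna2 windows held 74.0% and 73.3% G and C, against 56.3% for Kcna5 and 43.0% for Kcna6. Promoter entries were found for 46 of the 67 channel genes, with 50 windows whose median content of G and C was 62.5%, against 51.7% for all 33469 windows in the table. GGGCGG, searched on both strands, was found in 24 of the 46 genes and in 33.1% of all windows. Here and below a gene counts if any of its windows matched, while all windows are counted singly, so the units differ. The higher content of G and C in the channel windows was not allowed for. The CArG box, known from muscle genes, was in 0 of the 46 and in 1.64% of all windows, TGANTCA in 0 and 7.33%, TGACGTCA in 0 and 1.83%, CACGTG in 3 (Kcne4, Kcnh4 and Kcnk5) and 6.42%, and GAGGAAGT in 2 (Kcnj14 and Kcnj2) and 2.42%. These matches describe letters in a short window and say nothing of binding.

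The silent subunits do not form channels alone and modify those built from other pore subunits. Among those tested, Kcng1 and Kcnv2 had falls that were called, and Kcng2 had rises. The silent subunit genes Kcng3, Kcng4, Kcns1, Kcns3 and Kcnv1 were not called at any graft day. For Kcng1 the day 0 arrays were at -4.67, -3.52 and -3.13. Graft arrays of Kcng1 were at -5.60, -4.74 and -7.96 at day 7, at -7.74, -7.86 and -8.44 at day 14 and at -3.00, -4.10 and -2.34 at day 28. Kcng1 fell by 2.33 ± 0.76 at day 7 (adjusted p = 0.0389) and at day 14 was not well above background on any array and at least 8.78-fold lower (adjusted p = 0.00176), while at day 28 the difference was 0.63 ± 0.76 (adjusted p = 0.552). The day 7 call was lost without any 1 of 8 of the 12 arrays (adjusted p up to 0.0992), and without day 7 replicate 3 the day 7 value was -1.40; with normexp correction it was 0.23. Day 28 was higher than day 14 by at least 13.5-fold (adjusted p = 0.00874), a call lost without day 28 replicate 1 (adjusted p = 0.0505). Kcng1 passed the background filter only through arrays of other days than day 14. The filter thus favoured a fall at day 14 and a rise after it, and these calls are no separate support for either. For Kcnv2 the day 0 arrays were at -1.17, -2.05 and -1.90. Graft arrays of Kcnv2 were at -2.86, -2.56 and -5.47 at day 7, at -4.35, -3.20 and -5.33 at day 14 and at -3.08, -2.80 and -3.81 at day 28. Kcnv2 fell by 2.58 ± 0.75 at day 14 (adjusted p = 0.0206), and its other differences were -1.93 ± 0.75 at day 7 (adjusted p = 0.0723) and -1.53 ± 0.75 at day 28 (adjusted p = 0.139). Its day 14 call was lost without day 0 replicate 1, day 14 replicate 1 or day 14 replicate 3 (adjusted p up to 0.0839). Kcnq1, a slow delayed rectifier pore subunit, differed by -0.56 ± 0.50 at day 7 (adjusted p = 0.428), -0.54 ± 0.50 at day 14 (adjusted p = 0.431) and 0.76 ± 0.50 at day 28 (adjusted p = 0.27), with day 0 replicate 3 lacking a value. Kcnq5, another gene of that subfamily known from vessels, had no probe matched here. Among voltage-gated pore genes that the naming rule did not cover and that are listed because of their calls, Kcna1 fell at every graft day and Kcnh4 at days 14 and 28, while Kcna4 rose at days 7 and 28, Kcnh1 and Kcnh5 at day 7 and Kcng2 at days 7 and 14. Kcna1 was the steadiest of them, with falls of 1.91 ± 0.23, 2.08 ± 0.23 and 1.95 ± 0.23 (adjusted p = 0.000226, 0.000103 and 0.000276). The voltage-gated pore genes not called at any graft day were Kcna7, Kcnc1, Kcnc2, Kcnd2, Kcng3, Kcng4, Kcnq1, Kcnq3, Kcns1, Kcns3 and Kcnv1, and the 2 probes of Kcnc2 differed at day 7, at -0.02 and 2.18. Without both arrays with many non-uniform spots, Kcng4 was called at days 7 and 14, Kcns3 at day 7, Kcnv1 at day 14 and Kcna7 at day 28. With the scan as a fixed block Kcna7 was called at day 28 too.

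Auxiliary subunits of voltage-gated channels include single-span and cytosolic partners. Of the 10 tested, 40%, 30% and 20% were lower at days 7, 14 and 28, against 15.4%, 17.4% and 16.5% of all probes. Higher were 10%, 10% and 0%, against 17.7%, 20.1% and 17.4%. These shares rest on few genes, and that of falls at day 28 was near the share of all probes. Kcne2 stood at -2.08, -0.95 and -1.36 on the day 0 arrays and at -3.55, -3.97 and -4.95 at day 7. Later Kcne2 arrays were at -3.15, -3.16 and -3.15 at day 14 and at -3.23, -3.41 and -2.91 at day 28. Kcne2, a single-span partner of several pore families, fell by 2.69 ± 0.37 at day 7 (adjusted p = 0.000457), by 1.69 ± 0.37 at day 14 (adjusted p = 0.00499) and by 1.72 ± 0.37 at day 28 (adjusted p = 0.00578). Kcne4 stood at -4.71, -3.24 and -3.84 on the day 0 arrays and at -6.73, -6.25 and -8.05 at day 7. Later Kcne4 arrays were at -6.66, -6.06 and -8.21 at day 14 and at -4.64, -6.15 and -6.76 at day 28. Kcne4, which inhibits some Kv1 and slow rectifier channels, fell by 3.08 ± 0.72 at day 7 (adjusted p = 0.00818) and by 3.05 ± 0.72 at day 14 (adjusted p = 0.00746), and differed by -1.92 ± 0.72 at day 28 (adjusted p = 0.0613). On the day 7 and day 14 arrays Kcne4 was well above background on 1 of 3 each, and with normexp correction its day 7 difference was 0.15. Kcnab2 stood at -3.44, -3.03 and -2.74 on the day 0 arrays and at -1.22, -1.72 and -0.83 at day 7. Later Kcnab2 arrays were at -1.39, -1.05 and -1.62 at day 14 and at -2.42, -2.34 and -2.43 at day 28. Kcnab2, a cytosolic beta subunit of Kv1 channels found in many blood cells, rose by 1.81 ± 0.26 at day 7 (adjusted p = 0.000646) and by 1.72 ± 0.26 at day 14 (adjusted p = 0.000679), with a day 28 difference of 0.67 ± 0.26 (adjusted p = 0.0721). Kcnab1, the beta subunit described in smooth muscle, differed by -0.27 ± 0.50 at day 7 (adjusted p = 0.724), -1.31 ± 0.50 at day 14 (adjusted p = 0.0625) and -0.87 ± 0.50 at day 28 (adjusted p = 0.204), and its day 0 arrays spread from -0.91 to 0.91. Kcnip4 fell at day 7 by 1.18 ± 0.34 (adjusted p = 0.0228), and is named after its values were seen. Kcnab3, Kcne3, Kcne5 and Kcnip3 were not called at any graft day, but Kcnab3 was called at day 7 without both arrays with many non-uniform spots.

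**Figure D3:**
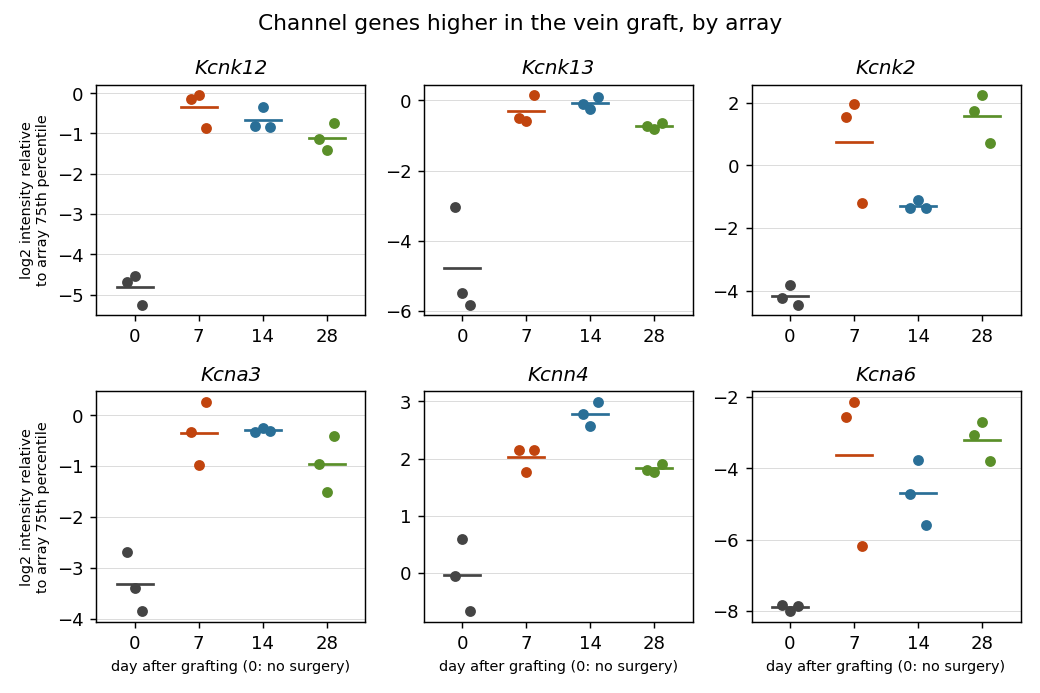
Log2 intensity relative to the array's 75th percentile on each array (points) and the mean of each day (lines) for 6 channel genes called higher at every graft day, by day after grafting, where day 0 is vein without surgery. All graft arrays of each gene lie above its day 0 arrays. Of all probes tested, 19.8%, 25.9% and 23.9% lay wholly above day 0 at day 7, day 14 and day 28, each day taken alone. The day 0 values of Kcna6 were not well above background, and it passed the filter only through graft arrays, which favoured a rise. The vertical scale differs between panels.

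Among calcium-activated channels, Kcnn4 rose and Kcnmb2 fell at each graft day. Kcnn4 encodes the intermediate-conductance channel of endothelium, lymphocytes, macrophages and proliferating smooth muscle. For Kcnn4 the day 0 arrays were at -0.05, 0.60 and -0.66. Graft arrays of Kcnn4 were at 2.15, 1.77 and 2.15 at day 7, at 2.77, 2.57 and 3.00 at day 14 and at 1.80, 1.77 and 1.91 at day 28. It rose by 2.06 ± 0.29 at day 7 (adjusted p = 0.000493), by 2.82 ± 0.29 at day 14 (adjusted p = 6.19e-05) and by 1.87 ± 0.29 at day 28 (adjusted p = 0.00108). With the scan as a block the rise was called at days 14 and 28 (2.63 ± 0.46, adjusted p = 0.0264, and 1.64 ± 0.35, adjusted p = 0.0416). Kcnn3 encodes a small-conductance channel of endothelium. Kcnn3 stood at -4.47, -5.10 and -5.06 on the day 0 arrays and at -4.15, -4.08 and -4.90 at day 7. Later Kcnn3 arrays were at -3.76, -3.95 and -3.45 at day 14 and at -3.27, -3.91 and -2.58 at day 28. Kcnn3 rose by 1.16 ± 0.35 at day 14 (adjusted p = 0.0254) and by 1.62 ± 0.35 at day 28 (adjusted p = 0.00623), and its day 7 difference was 0.50 ± 0.35 (adjusted p = 0.308). Its day 14 call was lost without day 0 replicate 2, day 0 replicate 3, day 14 replicate 1 or day 14 replicate 3 (adjusted p up to 0.0908). Endothelial markers, of which 5 of 10 were tested, had summed levels of 5.4 to 5.7 on day 0 arrays, 2.6 to 3.2 at day 7, 3.4 to 3.6 at day 14 and 3.8 to 4.7 at day 28. Of the 5, 3 were lower than day 0 at days 7 and 14, 2 were lower and 1 higher at day 28, and 2 were higher at day 28 than at day 7. Among graft days their sum ran in the same order as the mean level of Kcnn3. With day 0 included it did not, since their sum was highest there and the mean level of Kcnn3 lowest. The part of these markers in the values of Kcnn3 was not tested.

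Kcnmb2 and Kcnmb4 encode beta subunits of the large-conductance channel, the first of which inactivates it. Kcnmb2 stood at 1.34, 2.39 and 4.41 on the day 0 arrays and at -0.80, -1.38 and 0.76 at day 7. Later Kcnmb2 arrays were at -0.95, 0.03 and -1.74 at day 14 and at -1.97, -1.91 and -0.99 at day 28. Kcnmb2 fell by 3.19 ± 0.79 at day 7 (adjusted p = 0.0115), by 3.60 ± 0.79 at day 14 (adjusted p = 0.00543) and by 4.34 ± 0.79 at day 28 (adjusted p = 0.00265). Day 0 replicate 3 was its highest array, and without both arrays with many non-uniform spots the differences were -2.95 ± 0.60, -2.75 ± 0.55 and -3.49 ± 0.55, all called. With the scan as a block none was called, at -1.30 ± 1.58 for day 7 (adjusted p = 0.839), -1.77 ± 1.28 for day 14 (adjusted p = 0.464) and -2.86 ± 0.99 for day 28 (adjusted p = 0.126), and with only the arrays compared the day 7 call was lost too. Kcnmb4 differed by -0.23 ± 0.41 at day 7 (adjusted p = 0.713), -0.98 ± 0.41 at day 14 (adjusted p = 0.0867) and -0.48 ± 0.41 at day 28 (adjusted p = 0.39). Without both arrays with many non-uniform spots Kcnmb4 was called at days 14 and 28. The pore and smooth muscle beta subunit of the same channel were left out of the members, and their values stand beside these: Kcnmb1 fell by 3.13 ± 0.48, 3.70 ± 0.48 and 1.86 ± 0.48, and Kcnma1 fell by 5.18 ± 1.25 at day 28, with -1.68 ± 1.25 and -0.56 ± 1.25 at days 7 and 14, not called. Kcnn1, Kcnn2, Kcnt1 and Kcnt2 were not called at any graft day, and Kcnn2 was not well above background on any day 14 array. Without both arrays with many non-uniform spots Kcnt1 was called at days 7 and 14 and Kcnn2 at day 14.

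Among inward rectifiers, Kcnj9, Kcnj4 and Kcnj13 differed between graft days, each given with the test of that difference. Kcnj9 encodes a G protein-gated rectifier known mainly from neurons. Kcnj9 stood at -5.02, -4.56 and -3.60 on the day 0 arrays and at -3.70, -4.12 and -2.09 at day 7. Later Kcnj9 arrays were at 0.66, 1.21 and 0.04 at day 14 and at -3.11, -4.17 and -2.03 at day 28. It rose by 5.03 ± 0.65 at day 14 (adjusted p = 0.000257) and differed by 1.09 ± 0.65 at day 7 (adjusted p = 0.228) and 1.29 ± 0.65 at day 28 (adjusted p = 0.151). Without both arrays with many non-uniform spots its day 28 difference from day 0 was called as well, and within scan 2 that difference was 2.76. Day 14 exceeded day 7 by 3.94 ± 0.65 (adjusted p = 0.0104), a call lost without day 7 replicate 1 or day 14 replicate 1 (adjusted p up to 0.0563). From day 14 to day 28 it fell by 3.74 ± 0.65 (adjusted p = 0.014), a call lost without day 14 replicate 1, day 14 replicate 2, day 28 replicate 1 or day 28 replicate 2 (adjusted p up to 0.0698). In the scans that held both days, day 14 minus day 7 was 3.97 and day 28 minus day 14 was -4.27. With the scan as a block its rise at day 14 against day 0 was 7.03 ± 1.15, adjusted p = 0.0225.

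For Kcnj4 the day 0 arrays were at -3.75, -3.93 and -4.01. Graft arrays of Kcnj4 were at -2.40, -2.07 and -3.39 at day 7, at -4.69, -4.76 and -5.01 at day 14 and at -4.33, -4.51 and -4.26 at day 28. Kcnj4, a strong inward rectifier, rose by 1.28 ± 0.29 at day 7 (adjusted p = 0.00767), fell by 0.92 ± 0.29 at day 14 (adjusted p = 0.0305) and differed by -0.47 ± 0.29 at day 28 (adjusted p = 0.236). It fell from day 7 to day 14 by 2.20 ± 0.29 (adjusted p = 0.00327) and from day 7 to day 28 by 1.75 ± 0.29 (adjusted p = 0.0199). The day 14 fall against day 0 was lost without any 1 of 5 of the 12 arrays (adjusted p up to 0.101), and the fall from day 7 to day 28 without day 7 replicate 1, day 28 replicate 1, day 28 replicate 2 or day 28 replicate 3 (adjusted p up to 0.0985). For Kcnj13 the day 0 arrays were at -5.51, -5.29 and -5.33. Graft arrays of Kcnj13 were at -4.90, -5.01 and -4.68 at day 7, at -5.75, -5.74 and -6.30 at day 14 and at -5.47, -5.74 and -5.73 at day 28. Kcnj13, a weak rectifier of epithelia, fell from day 7 to day 14 by 1.07 ± 0.20 (adjusted p = 0.0173), a call lost without day 7 replicate 1, day 14 replicate 1 or day 14 replicate 3 (adjusted p up to 0.0768). Against day 0 it fell by 0.55 ± 0.20 at day 14 (adjusted p = 0.0485), lost without any 1 of 10 of the 12 arrays (adjusted p up to 0.189) and at -0.37 without day 14 replicate 3, and differed by 0.52 ± 0.20 at day 7 (adjusted p = 0.0678) and -0.26 ± 0.20 at day 28 (adjusted p = 0.319).

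**Figure D4:**
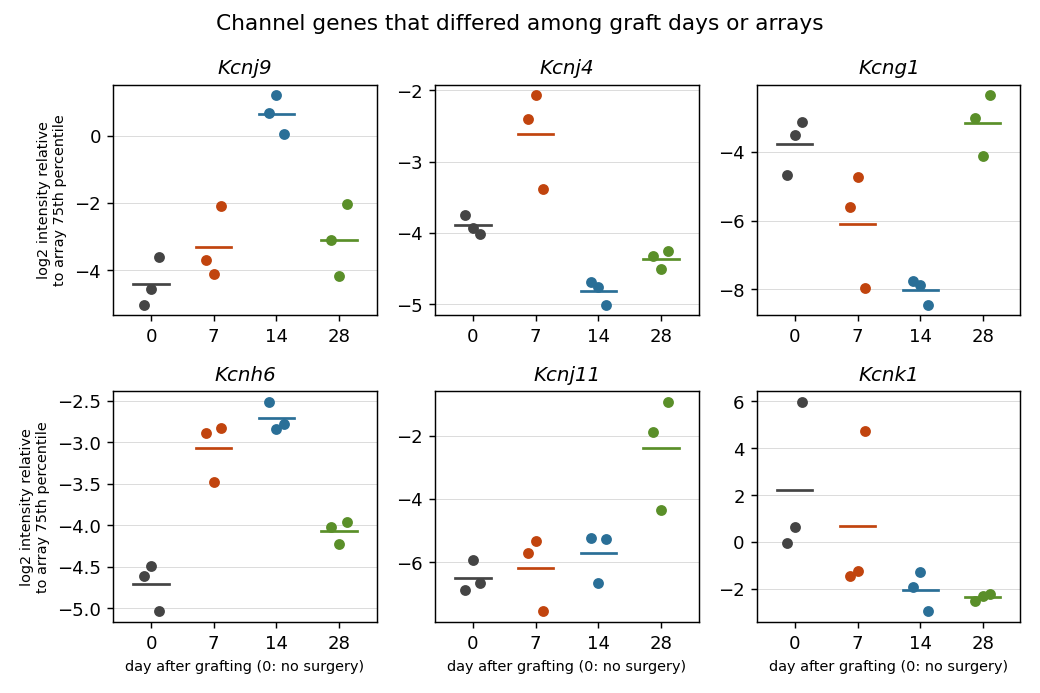
Log2 intensity relative to the array's 75th percentile on each array (points) and the mean of each day (lines) for 6 channel genes that differed among graft days or among arrays of a day, by day after grafting, where day 0 is vein without surgery. Kcnj9 is highest at day 14, Kcng1 is low at day 14 and back near day 0 at day 28, Kcnj11 is high at day 28, and Kcnk1 has 1 high array at day 0 and 1 at day 7. The day 14 values of Kcng1 were not well above background. The vertical scale differs between panels.

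Kcnj8 and Kcnj11 encode pores of channels closed by ATP, the first that of vascular smooth muscle and the second that of pancreatic islet cells, heart and skeletal muscle. For Kcnj8 the day 0 arrays were at -0.59, -0.86 and -2.31. Graft arrays of Kcnj8 were at -1.18, -1.12 and -1.97 at day 7, at -0.83, -0.94 and -0.66 at day 14 and at 0.07, -0.26 and 0.52 at day 28. Kcnj8 rose at day 28 by 1.36 ± 0.42 (adjusted p = 0.0312) and differed by -0.17 ± 0.42 at day 7 (adjusted p = 0.798) and 0.44 ± 0.42 at day 14 (adjusted p = 0.437). The day 28 call was lost without day 0 replicate 3, day 28 replicate 1 or day 28 replicate 3 (adjusted p up to 0.103), and without day 0 replicate 3 the value was 0.83. For Kcnj11 the day 0 arrays were at -6.87, -5.93 and -6.63. Graft arrays of Kcnj11 were at -5.69, -5.32 and -7.54 at day 7, at -5.22, -6.64 and -5.25 at day 14 and at -1.87, -4.33 and -0.92 at day 28. Kcnj11 rose at day 28 by 4.10 ± 0.85 (adjusted p = 0.00483), with 0.29 ± 0.85 at day 7 (adjusted p = 0.826) and 0.77 ± 0.85 at day 14 (adjusted p = 0.5) before. With normexp correction the day 28 value was 1.47 (adjusted p = 0.281), not called. Kcnj11 was well above background on 1, 2, 2 and 3 arrays at days 0, 7, 14 and 28. Its day 28 arrays stood in the same order as the summed level of 9 tested skeletal muscle markers, at 8.8, 6.0 and 9.7 on those arrays against 3.9 to 6.6 on all others, and 8 of the 9 markers rose at day 28. Kcna7, a voltage-gated pore gene of skeletal muscle, stood at -3.10, -5.22 and -2.02 on those arrays, and its day 28 difference was 1.84 ± 0.76 (adjusted p = 0.0857). The part of muscle RNA in these values was not tested.

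For Kcnj15 the day 0 arrays were at -7.95, -8.37 and -7.89. Graft arrays of Kcnj15 were at -4.61, -4.46 and -5.28 at day 7, at -5.79, -6.44 and -5.88 at day 14 and at -4.63, -4.09 and -5.61 at day 28. Kcnj15, a rectifier of epithelia and kidney, was not well above background on any day 0 array. As bounds, its level exceeded day 0 by at least 3.3-fold at day 7 (adjusted p = 0.000166), at least 1.39-fold at day 14 (adjusted p = 0.00213) and at least 3.32-fold at day 28 (adjusted p = 0.000243). Like Kcna6, it passed the filter only through graft arrays, which favoured a rise. Kcnj2, the strong rectifier of endothelium and small arteries, differed by 1.04 ± 0.42 at day 7 (adjusted p = 0.0834), 0.27 ± 0.42 at day 14 (adjusted p = 0.645) and 0.05 ± 0.42 at day 28 (adjusted p = 0.934). Its highest array was day 7 replicate 3, at -2.82, and without both arrays with many non-uniform spots the day 7 difference of Kcnj2 was 0.81 ± 0.24 (adjusted p = 0.0302). Among rectifiers listed because of their calls, Kcnj12 fell by 2.32 ± 0.57 at day 7 and 2.46 ± 0.57 at day 14 and stood at -0.62 ± 0.57 at day 28, and Kcnj14 rose by 0.82 ± 0.18 at day 28 (adjusted p = 0.00709). Of the 15 inward rectifier genes with a probe, Kcnj1, Kcnj3, Kcnj5, Kcnj6, Kcnj10 and Kcnj16 did not pass the background filter, and 8 genes of other families did not: Kcnb2, Kcnd1, Kcne1, Kcnh8, Kcnk10, Kcnk16, Kcnmb3 and Kcns2.

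Between graft days few channel genes were called. From day 7 to day 14, 4 of 67 were called (1 higher and 3 lower, 5.97%), against 3.26% of all probes. From day 14 to day 28, 6 were called (4 higher and 2 lower, 8.96%), against 4.48% of probes, and from day 7 to day 28, 2 were called, both lower (2.99%), against 1.78%. Leaving out day 7 replicate 3 raised the first count to 11, where 351 of all probes were higher and 912 lower. Leaving out day 14 replicate 1 lowered it to 1, where 89 of all probes were higher and 136 lower. The count from day 14 to day 28 was 12 without day 0 replicate 3, where 926 of all probes were higher and 1053 lower. It was 0 without day 28 replicate 1, where 72 were higher and 91 lower. That from day 7 to day 28 was 6 without day 0 replicate 3, where 247 were higher and 396 lower. It was 0 without any of day 7 replicate 1, day 28 replicate 1 or day 28 replicate 3. Each count was 0 with the scan as a fixed block. In that fit 11, 47 and 0 of all probes were higher and 17, 77 and 0 lower.

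Within scan 2, the only scan to hold day 28 with day 0, all 26 genes called at day 28 kept their direction, as did 7134 of the 7135 called probes with a value there. The calls used the same arrays, so this is no separate check. There, day 28 replicate 3 minus the mean of the 2 day 0 arrays was -3.12 for Kcnk3, -2.74 for Kcna5, -1.80 for Kcnd3, -2.37 for Kcnip2 and -3.55 for Kcnh2. For the genes that rose, it was 3.85 for Kcnk12, 3.62 for Kcnk13, 4.75 for Kcnk2, 2.63 for Kcna3, 1.64 for Kcnn4, 2.20 for Kcnn3, 1.24 for Kcnj8 and 5.48 for Kcnj11. These are single arrays in 1 of the 2 groups and carry no test.

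Genes of proteins that work with these channels, chosen with earlier results of these data known, gave 36 tested genes, Kcnma1 and Kcnmb1 included, of which 8 rose and 12 fell at day 7, 8 rose and 10 fell at day 14 and 8 rose and 8 fell at day 28. These shares were 22.2% and 33.3%, 22.2% and 27.8%, and 22.2% each way, against 17.7% and 15.4%, 20.1% and 17.4%, and 17.4% and 16.5% of all probes. Abcc9, the sulfonylurea receptor that joins Kcnj8 in the vascular channel closed by ATP, differed by -3.68 ± 0.20, -3.35 ± 0.20 and -1.90 ± 0.20 at days 7, 14 and 28, called lower at each. Its gene lies next to Kcnj8 on chromosome 4, and Kcnj8 itself was not called at days 7 and 14. Of genes for calcium entry, which potassium channels oppose, Cacna1h differed by -4.65, -5.40 and -4.85 and Cacna1c by -0.95, -0.97 and -0.68, called lower at each day, and Cacnb2 by -2.51, -2.77 and -1.13, called at days 7 and 14. Cacnb3, another calcium channel beta subunit, differed by 1.33, 1.35 and 1.36, called higher at each day. The anchoring protein gene Akap5 (-2.95, -2.23 and -3.31) and the caveolar Cav1 (-1.59, -1.63 and -0.65) were lower at each day. The non-selective channel gene Trpc6 (2.68, 3.36 and 3.27), the gap junction gene Gja1 (2.15, 2.75 and 2.37), Trpv2 (2.12, 3.62 and 2.21) and the sodium pump gene Atp1b1 (1.97, 1.82 and 1.24) were higher at each day. Rest, which encodes a repressor of neuronal genes, differed by 2.11, 2.50 and 1.70 and was called at days 7 and 14, and its lowest array was day 0 replicate 3, at -7.75. Without both arrays with many non-uniform spots Rest differed by 1.25, 1.51 and 0.71, called at each day. Trpc1 differed by -1.40, -2.07 and 0.15 (called at days 7 and 14), Piezo1, a stretch-gated channel, by 0.73, 0.77 and 0.68 (days 7 and 14), and Cacna2d1 (-1.10, -0.02 and -0.08), Gja5 (-2.03, -1.06 and 0.16) and Trpv4 (-1.08, -0.83 and 0.20) were called at day 7 alone. Atp1b2 (-0.71, -1.06 and 0.72) was called at day 14, and Ano1 (-0.49, -0.19 and 1.42), Gja4 (-0.15, 0.78 and 1.58) and Lrrc26 (-1.82, -3.02 and -3.97) at day 28. Lrrc26, an auxiliary subunit of the large-conductance channel, was highest on the same 2 arrays as Kcnk1, at 5.99 on day 0 replicate 3 and 4.03 on day 7 replicate 3. Without both, Lrrc26 differed by -1.75 ± 0.47, -1.68 ± 0.43 and -2.63 ± 0.43, called lower at each day (adjusted p = 0.0195, 0.0129 and 0.00204).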

How the data were processed

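Total RNA of vein was depleted of ribosomal RNA, labelled with Cy3 along whole transcripts and hybridised to 12 single-colour arrays, per the labels' protocols. The authors deposited scanner output with a linear intensity per spot, from Agilent Feature Extraction 11.0.1.1 per the submitters' processing notes, with background already subtracted per the file headers. A further deposited table, on a log2 scale as its values show, has column medians near 7.16; each column matched its own array best (r from 0.994 to 0.999), and how it was centred is not given in the sources used here.

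From each array 1417 control spots were left out, as were 7348 outlier spots over all arrays, which left 478 probe values missing. Spots of a probe were averaged, and the 75th percentile of each array was subtracted from the log2 processed values. Of 24684 probes, 21063 were tested, those with at least 50% of their spots marked well above background on 3 or more arrays. Of the probes 14294 had 1 symbol and 10390 none, through the RefSeq table of GRCr8. The brightest probe stood for a gene. Means of the 4 days were fitted to all arrays with limma 3.58.1 in R 4.3.3 (8 residual and 2.32 prior degrees of freedom), with eBayes and Benjamini-Hochberg adjustment. The fit was run on simulated data with independent noise, equal in spread on all arrays of a probe, and no scan effect. That run therefore does not cover the uneven array quality or the scans of these data. Python 3.11.15 with pandas 2.3.3, NumPy 2.4.6 and Matplotlib 3.10.9 served for sequences and plots. The number of arrays limits the precision.

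Genes named were the 8 largest called rises and falls at each graft day, every gene called between graft days, a list of channel genes known from vessel wall or leukocytes, and called partner genes. Some genes that the rule covers are not reported here by name, and counts include them. The members and lists were chosen with earlier results of these data known. Replicates 1 to 3 are names in accession order. Alternatives changed the background correction, the scaling, the dim-probe filter, the scan as a block, array weights, the arrays compared, the probe rule and single arrays; normexp correction used the median signal with an offset of 50 because the mean signal is not in the files. Putting the array scanned alone with scan 2, whose free position it fills, was an alternative chosen after seeing the data.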

Additional observations from a re-analysis of the deposited data

Results flagged for a closer look

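These channel genes differed between graft days by a test of that difference, with 3 arrays per day, so that their difference from day 0 was not the same at both days.

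From day 7 to day 14, Kcnj9 was higher by 3.94 ± 0.65, adjusted p = 0.0104, while the log2 difference was -2.20 ± 0.29, adjusted p = 0.00327 for Kcnj4, -1.93 ± 0.45, adjusted p = 0.0452 for Kcnd2 and -1.07 ± 0.20, adjusted p = 0.0173 for Kcnj13. From day 14 to day 28, the difference was -3.74 ± 0.65, adjusted p = 0.014 for Kcnj9 and -1.36 ± 0.22, adjusted p = 0.0116 for Kcnh6, and it was 4.87 ± 0.76, adjusted p = 0.00874 for Kcng1, 3.60 ± 0.59, adjusted p = 0.0112 for Kcnh2 and 2.84 ± 0.70, adjusted p = 0.0486 for Kcnk2. Kcng1 was not well above background on any day 14 array, so its fitted value has only a bound behind it, at least 13.5-fold. It passed the filter only through arrays of other days, which favoured a rise from day 14 to day 28. From day 7 to day 28, the difference was -1.75 ± 0.29, adjusted p = 0.0199 for Kcnj4 and -0.98 ± 0.20, adjusted p = 0.0422 for Kcnk3. Kcnj4 was above every day 0 array at day 7 and below every day 0 array at days 14 and 28. Each of these differences was above an adjusted p of 0.05 with the scan as a fixed block. Within scan 3, day 14 minus day 7 was 3.97 for Kcnj9, -2.07 for Kcnj4, -2.37 for Kcnd2 and -0.89 for Kcnj13. Within scan 1, day 28 minus day 14 was -4.27 for Kcnj9, -1.32 for Kcnh6, 4.60 for Kcng1, 3.99 for Kcnh2 and 3.23 for Kcnk2. These arrays were also part of the test. No scan held day 7 with day 28.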

How the results depend on the processing

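Counts of called channel genes are given here as higher/lower against day 0 at days 7, 14 and 28, then as calls from day 7 to 14, day 14 to 28 and day 7 to 28; as reported they were 16/14, 14/18, 13/13, then 4, 6 and 2. With normexp correction they were 6/7, 7/8, 5/9, then 0, 1 and 1; with the scan as a fixed block 1/0, 5/3, 7/6, then 0, 0 and 0; and with the array scanned alone put with scan 2, chosen after seeing the data, 1/0, 5/3, 8/8, then 0, 0 and 0. Normexp correction and the fixed block lowered the calls of all probes too, as given above. Fitting only the arrays compared gave 10 higher at day 7, then 2, 22 and 0. In that setting 1625 of all probes were higher at day 7. From day 14 to day 28, 2942 were higher and 3411 lower. Array quality weights, which ran from 0.0757 to 26.6, gave 39, 54 and 56 between graft days. With these weights 5546, 7124 and 6129 of all 21063 probes were called higher and 5323, 9342 and 7617 lower. The heaviest array of each graft day was replicate 1, at 8.09, 11.7 and 26.6 for days 7, 14 and 28. Leaving out both arrays with many non-uniform spots gave 16, 21 and 9. Of all probes 894, 2400 and 240 were then higher and 1533, 2405 and 694 lower. The scan as a random block gave 0 from day 7 to day 28, and the deposited log2 values gave 4 there. Leaving out each array in turn gave 12 to 15 higher and 12 to 15 lower at day 7, 13 to 15 and 13 to 24 at day 14, and 10 to 15 and 13 to 20 at day 28, then 1 to 11, 0 to 12 and 0 to 6. Of 80 calls of named genes, 2 reversed: with normexp correction the day 7 differences of Kcne4 and Kcng1 were 0.15 and 0.23, and the cause was not tested. Quantile normalization and a stricter filter on dim probes kept all 80, the scan as a fixed block kept 18 and normexp correction 39. Kcnk12 at all graft days, Kcna3, Kcnk3 and Kcnn4 at days 14 and 28, Kcnh2 and Kcnj9 at day 14 and Kcna5, Kcnd3 and Kcnh3 at day 28 kept their call in every alternative run. No paired analysis was possible because every array bears the same replicate number in the labels. For genes near background, such as Kcna6, Kcnj15, Kcng1 and Kcne4, signal over background limits the size of a difference. The causes of these changes were not tested.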
